A study of Homo sapiens with 4 samples.

Results

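The subject is the set of 54 genes whose values lay lower in both CST5-transfected clones of HCT116 cells than in both control lines. They were taken from a table of 24916 Ensembl gene identifiers, of which 15131 passed a filter on dim signal, the 40th percentile of the array exceeded on at least 2 of 4 arrays. Members were chosen by these measured values themselves: the higher of the 2 clone values minus the lower of the 2 control values had to show at least a 1.5-fold decrease on the log2 scale, so that this held in every one of the 4 clone-to-control pairs. In all, 56 genes met that condition, and 2 of them were set apart beforehand.

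HCT116 is an established human colon adenocarcinoma line. RNA was measured by Affymetrix arrays in 4 lines. CST5 clone 9 and CST5 clone 20 are labelled as transfected with CST5, and their level of CST5 was not checked here. The mock-transfected and un-transfected lines served as controls. Each line had 1 array, so the clones and the controls were groups of 2. Both CST5 lines are clonal, so expression of CST5 and the selection of single clones cannot be told apart, and the labels do not state how the mock line was isolated. Cystatin D, the product of CST5, is a secreted inhibitor of cysteine proteases of the cathepsin family. CST5 is known as a gene induced by vitamin D in colon carcinoma cells, and the study concerned cystatin D in the nucleus and its effect on gene expression.

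Genes carry only an Ensembl identifier in the deposited table. The RefSeq gene table at hand has no Ensembl identifiers entered, so 0 could be paired with a symbol. Symbols, functions, chromosomes and promoter sequences are therefore not given, and neither the level of CST5 nor markers of colon epithelium or of other cell types were checked against the labels. Genes are numbered 1 to 54 by the size of their smallest clone-to-control difference, gene 1 having the largest. All values are on the deposited scale, read as log2 from its range of 1.03 to 12.7, and every fold rests on that reading. The arrays had medians of 4.18 (clone 9), 4.21 (clone 20), 4.09 (mock) and 4.12 (un-transfected).

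The 54 genes make up most of the 0.37% of tested genes that were at least 1.5-fold lower in all 4 differences, and 0.43% were at least that much higher. Because the clone-to-control contrast chose the genes, their differences are a description and carry no test. Over all tested genes limma called 2, or 0.0132%, past an adjusted p of 0.05, 1 lower and 1 higher in the clones, and neither is among the 54. The 2 genes set apart had already been taken out of the 54. limma used the same contrast that chose the members, so its calls are no test of them. The median log2 difference of the members, mean of the clones minus mean of the controls, was -0.98, against -0.01 over all tested genes. Differences ran from -2.68 to -0.67, that is, from 6.39-fold down to 1.59-fold lower. The mean difference reached 2-fold in 26 members, and in 40 of all 15131 tested genes, members included. In 4 members it reached 3-fold, and the count over all tested genes was not computed for that limit. The rule bears on both member counts, so nothing is read from them. The 3 members nearest to the threshold had smallest differences of -0.60, -0.59 and -0.59 on the log2 scale, and the 3 genes just outside it all had -0.58.

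**Figure D1:**
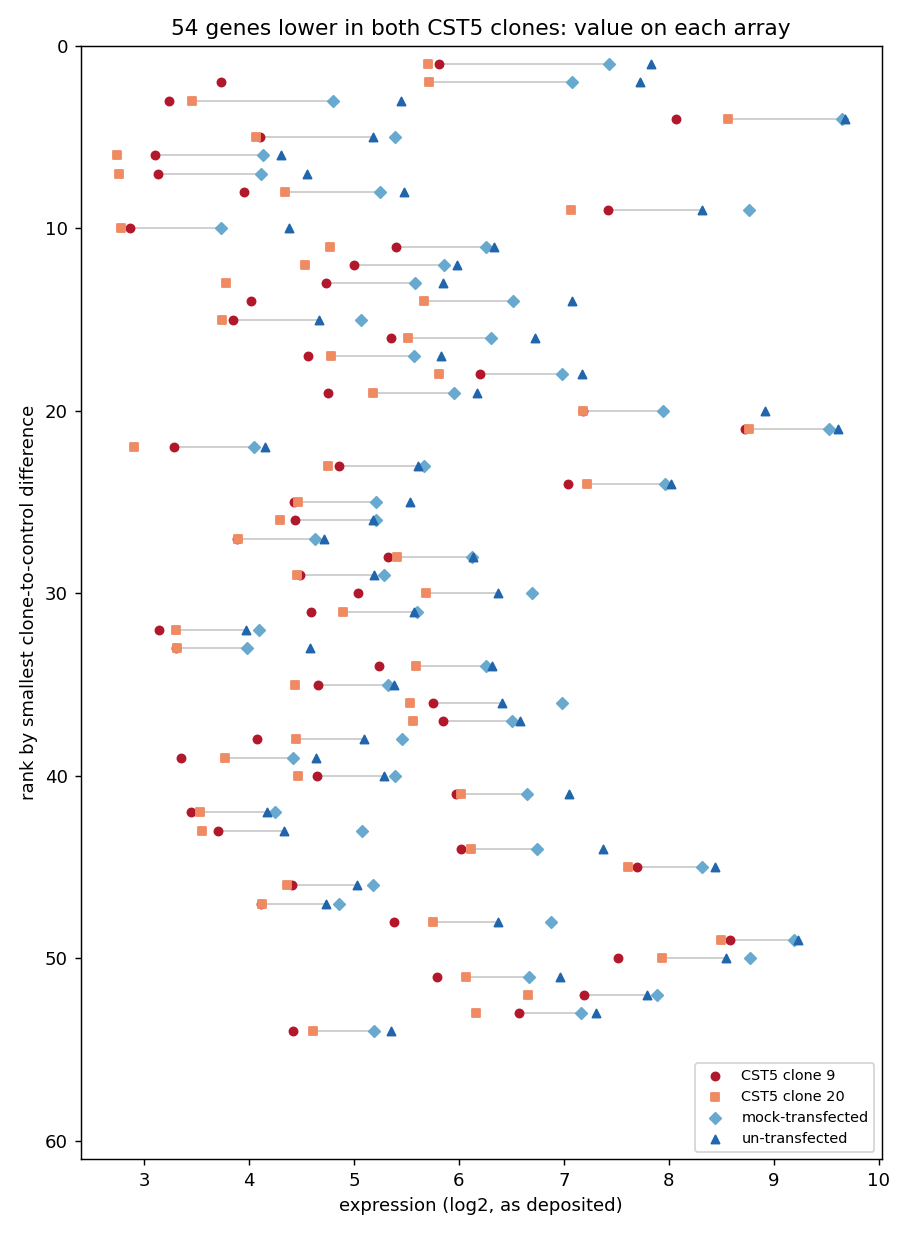
Expression on each of the 4 arrays (horizontal axis, log2 as deposited) for the 54 genes, ordered down the page by their smallest clone-to-control difference; grey lines span the gap between the higher clone and the lower control. The smallest difference is -1.62 at gene 1 and -0.59 at gene 54, and clone 9 lies far to the left of clone 20 in genes 2 and 14.

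In 6 members all 4 differences reached 2-fold, as in 0.0529% of all tested genes when the genes set apart are counted. Gene 1, ENSG00000038427, read 5.81 in clone 9 and 5.71 in clone 20, against 7.43 in mock and 7.83 in un-transfected cells. Its means were 5.76 ± 0.07 in the clones and 7.63 ± 0.28 in the controls (SD, n = 2 each), a log2 difference of -1.87 or 3.66-fold. The clones lay closer together than the controls did, and even the nearest clone and control were 3.07-fold apart.

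Gene 2, ENSG00000135318, had the largest mean difference of the set, -2.68 on the log2 scale. It read 5.72 in clone 20 and 3.73 in clone 9, against 7.07 in mock and 7.73 in un-transfected cells. The 2 clones differed from each other by 3.95-fold, so the size of the difference depended on the clone: 15.95-fold between clone 9 and un-transfected cells, and 2.56-fold between clone 20 and mock cells. Without clone 9 its log2 difference was -1.69, and without clone 20 it was -3.67.

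Gene 3 read 3.24 in clone 9 and 3.46 in clone 20, against 4.80 in mock and 5.45 in un-transfected cells. Neither clone value exceeded its array's 40th percentile, 3.41 and 3.48, beside a mean difference of 3.42-fold. Gene 4 was the brightest of these 6, with 8.07 and 8.56 in clones 9 and 20, against 9.65 in mock and 9.68 in un-transfected cells. Here the controls agreed to within 0.03 while the clones were 0.49 apart on the log2 scale.

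Gene 5 showed the reverse, with 4.10 and 4.07 in clones 9 and 20, against 5.39 in mock and 5.18 in un-transfected cells. Its smallest clone-to-control gap was 5.03 times the larger of the 2 within-group differences. Gene 6 read 3.11 and 2.74 in clones 9 and 20, against 4.13 in mock and 4.30 in un-transfected cells. Like gene 3, it was dim in both clones.

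The rule requires both clones to lie below both controls, so the values of each clone are a description. Across the members the median difference from un-transfected cells was -0.98 for clone 9 and -0.97 for clone 20, and the median difference from mock cells was -0.86 for clone 9 and -0.90 for clone 20. These comparisons share their control arrays. Clone 9 was at least 2-fold below un-transfected cells in 25 members and below mock cells in 21, as were 0.8% and 0.654% of all tested genes. For clone 20 the counts were 26 and 21, beside 0.78% and 0.601% of all tested genes. The rule used these differences, so nothing is read from the counts. The lower clone was clone 9 in 28 members and clone 20 in 26.

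**Figure D2:**
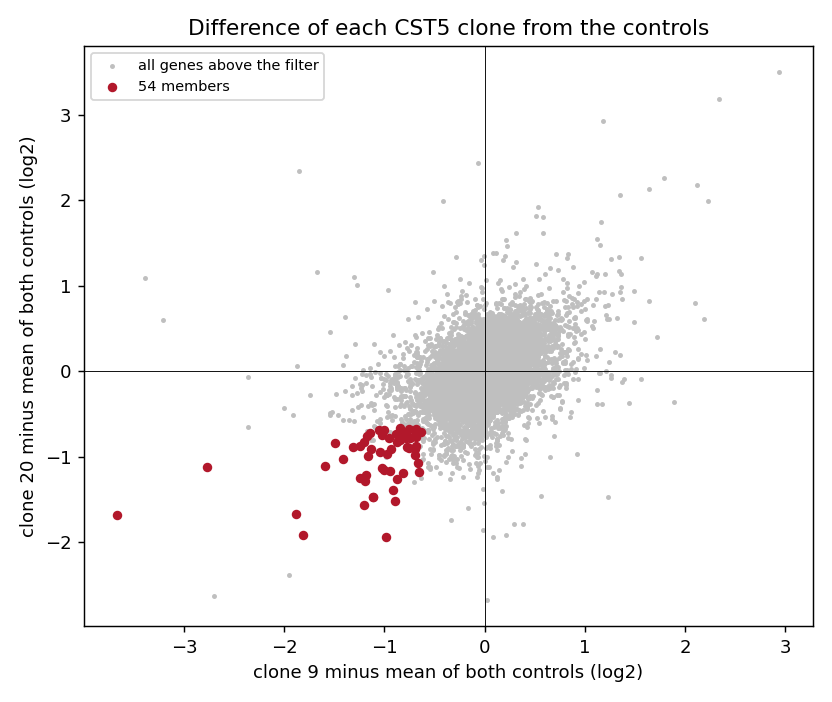
Difference of clone 9 (horizontal axis) and of clone 20 (vertical axis) from the mean of both controls, log2, for all 15131 tested genes in grey and the 54 members in red. The rule places all members in the lower left, and genes 2 and 14 lie furthest to the left; both axes share the control arrays.

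Differences within the groups also bear on the choice of the genes, since the rule takes the higher clone and the lower control. They are therefore given beside all tested genes as a description only, and nothing is read from the comparison. The median size of the clone 20 minus clone 9 difference was 0.22 in the members, against 0.16 over all tested genes, on the log2 scale. For mock minus un-transfected it was 0.20 in the members, against 0.11 over all tested genes. The 65 genes that were higher in both clones by the mirrored rule had 0.21 and 0.20 for the same quantities. With 1 array per line these differences have no replicate check.

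The clones were at least 1.5-fold apart in 5 members, or 9.26%, against a background of 5.84%. Genes 2, 14 and 30 were lower in clone 9, and genes 11 and 13 were lower in clone 20. Gene 14 read 5.67 in clone 20 and 4.02 in clone 9, against 6.51 in mock and 7.07 in un-transfected cells, and the clones were 3.13-fold apart. Gene 13 read 3.78 in clone 20 and 4.73 in clone 9, against 5.58 in mock and 5.85 in un-transfected cells. Genes 2 and 14 were the members with clones at least 2-fold apart, a share of 3.70% against 1.21% of the tested genes.

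Mock and un-transfected cells were at least 1.5-fold apart in 7 members, or 12.96%, against a background of 1.69%. In 6 of these, genes 2, 3, 10, 20, 33 and 44, mock was the lower control and so lay nearer to the clones. Gene 20 was the clearest case. It read 7.19 and 7.18 in clones 9 and 20, against 7.95 in mock and 8.91 in un-transfected cells. In this gene the mock-transfected line lay between the clones and the un-transfected line. Gene 43 ran the other way, with 3.70 and 3.55 in clones 9 and 20, against 5.08 in mock and 4.33 in un-transfected cells.

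Over the whole set mock was the lower control in 35 of 54 members, or 64.8%, against 48.8% of all tested genes. The median mock minus un-transfected difference was -0.08 in the members, against 0.00 over all tested genes. Both control values entered the rule, so this share and this median are a description only. The part of mock transfection in these differences was not tested. Clone 20 was below clone 9 in 48.1% of members, against 49.4% of all tested genes.

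**Figure D3:**
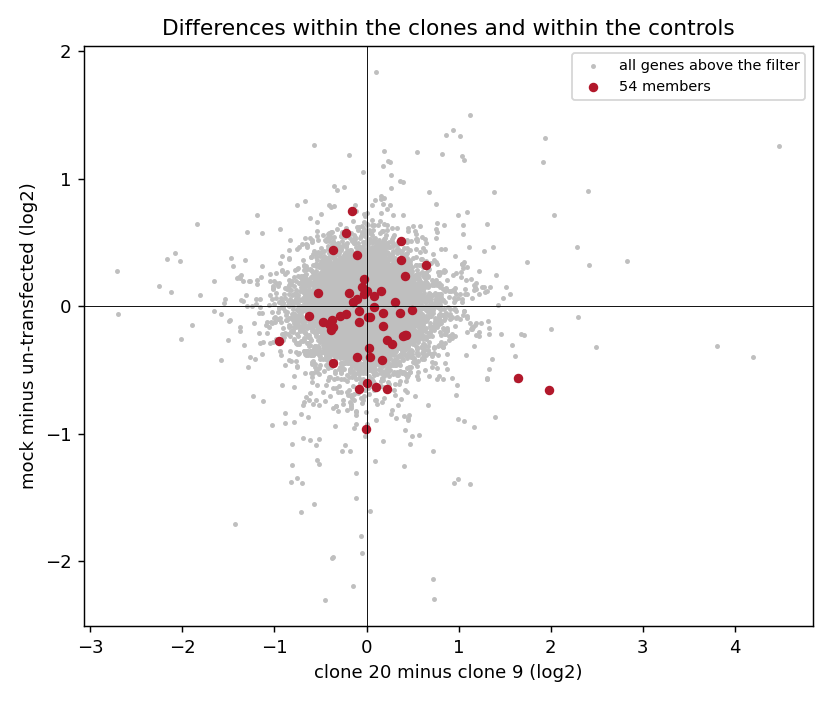
Difference between the clones (horizontal axis, clone 20 minus clone 9) and between the controls (vertical axis, mock minus un-transfected), log2, for all tested genes in grey and the 54 members in red. Genes 2 and 14 stand to the right, with clone 9 far below clone 20, and gene 20 lies lowest, at -0.97 between mock and un-transfected cells.

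In 48 members the smallest clone-to-control gap exceeded both within-group differences, and in 6 members, genes 2, 13, 14, 20, 43 and 44, it did not. The rule sets a lower limit to that gap and so largely fixes the count. Of all tested genes, 8.93% had both clones below both controls by such a gap. The gap was at least 5 times both within-group differences in 11 members. Of these, gene 5 was 2.30-fold lower in the clones and the other 10 were 1.59-fold to 1.78-fold lower. The lower limit on the gap bears on these 11 members too. The 8.93% does not refer to a gap of 5 times, and no background was worked out for that ratio. The count of 11 is therefore a description only. Gene 28 read 5.32 and 5.41 in clones 9 and 20, against 6.12 in mock and 6.13 in un-transfected cells, a log2 difference of -0.76. Gene 27 read 3.88 and 3.89 in clones 9 and 20, against 4.63 in mock and 4.71 in un-transfected cells. Both lines of each group gave nearly the same value in these genes.

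Gene 21 had a bright signal and close values within each group. It read 8.72 and 8.76 in clones 9 and 20, against 9.52 in mock and 9.61 in un-transfected cells, 1.77-fold lower in the clones. Gene 49, also bright, read 8.58 and 8.50 in clones 9 and 20, against 9.19 in mock and 9.23 in un-transfected cells, and had the smallest mean difference of the set, 1.59-fold. In 6 members, genes 21, 27, 28, 29, 42 and 49, neither the clones nor the controls were more than 0.1 apart. The share of all tested genes meeting both limits together was not computed, so this count is a description only. Taken singly, the clones were within 0.1 of each other in 29.6% of members, against 33.7% of all tested genes. For the controls the shares were 27.8% and 44.8%. The rule bears on these differences too, so nothing is read from the shares.

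The members spanned a wide range of levels. Their mean in the clones had a median of 4.75 and a range from 2.82 to 8.74, and their mean in the controls had a median of 5.82 and a range from 4.03 to 9.67. Over all tested genes the median control mean was 5.72. All tested genes were split into 4 bands of equal size by their control mean, at 4.49, 5.72 and 6.94. From the dimmest band to the brightest, 7, 20, 13 and 14 members fell into them. Counting the genes set apart, the rule was met by 0.185%, 0.529%, 0.37% and 0.397% of the tested genes in those bands. The median log2 difference of the members lay between -1.06 (in the third band) and -0.88 (in the second band), with no steady change with level.

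All 4 arrays were above their 40th percentile in 46 members. They were above their own median in 35, or 64.8%, against 78.1% of all tested genes. In 7 members, genes 3, 6, 7, 10, 22, 32 and 33, both clones lay at or below the 40th percentile, so these passed the filter through the controls alone. In gene 39 only clone 9 lay at or below that percentile. Background was not measured, and the folds of these 8 genes may understate or overstate the difference. Gene 10 had the lowest mean of the clones, with 2.86 and 2.78 in clones 9 and 20, against 3.73 in mock and 4.38 in un-transfected cells. At the other end, both clones stayed above the 75th percentile of their array in 10 members and both controls did in 24. These percentiles were taken over all rows, of which the tested genes are the brighter part. For these counts and for the 46 members above, the shares of all tested genes were not computed, so nothing is read from them.

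**Figure D4:**
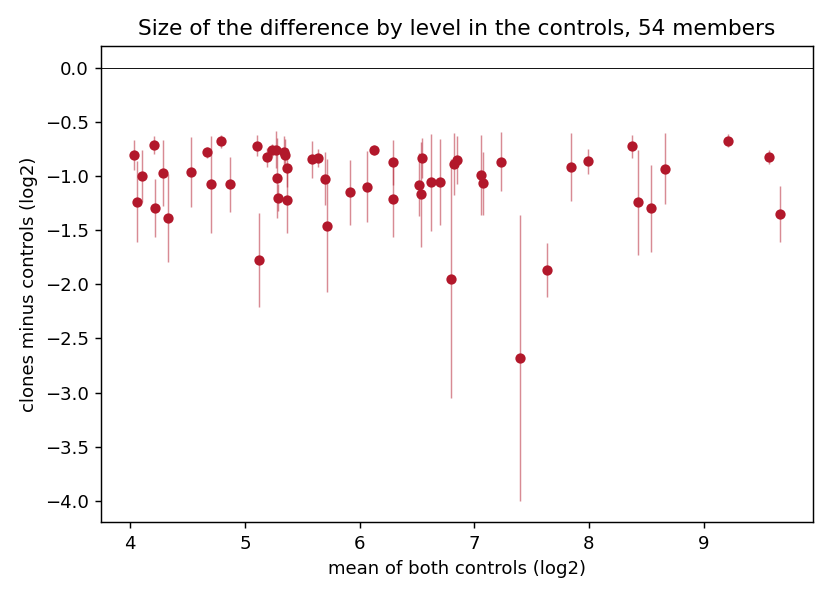
Mean difference of the clones from the controls (points, log2) against the mean of both controls (horizontal axis, log2) for the 54 members, with lines from the smallest to the largest of the 4 clone-to-control differences. Differences between -0.67 and -1.46, those of all members but genes 1, 2, 3 and 14, occur over the whole range of levels, and the longest lines belong to genes 2 and 14.

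A mean difference of at least 2-fold in the lower direction was found in 40 tested genes, of which 26 were members. A further 12 were outside the rule and differed between clones at least 2-fold, 1 of them also between the controls.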

How the data were processed

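Total RNA (100 ng for each line, per the labels' protocols) was amplified in 2 cycles of cDNA synthesis, labelled with biotin and hybridised to Affymetrix GeneChip arrays. The authors deposited 1 log2 value per Ensembl gene identifier and array; the log base was inferred from the range, and background correction, summarisation, normalization and annotation are not stated in the labels or the table. A gene was tested if it exceeded its array's 40th percentile on at least 2 of 4 arrays, which removed 9785 rows. Ranges, counts and means were computed with Python 3.11.15 and pandas 2.3.3. limma 3.58.1 in R 4.3.3 compared clones with controls over all 15131 genes, with Benjamini-Hochberg adjustment at 0.05. A check on simulated data set a limit for its median log2 differences only, not for the number of genes called. With 1 array a line, limma's p-values reflect differences among single lines, technical ones included. It was meant for genes outside the set, and no p is given for members. The members and the rule were chosen with earlier results of these data known. A rule called for values of 30 members by name. Every member has an identifier without a name. Of these identifiers 2 are printed, and other members are numbered. The 29 gene lists, the relatives by symbol, the marker check and the promoter features were not run for the same reason. The few arrays limit the precision of every value. Alternatives were other scalings, filters and folds, a trended prior, and leaving out each array.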

Additional observations from a re-analysis of the deposited data

How the results depend on the processing

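The count of genes by the rule, 54, was 56 after quantile normalization and 58 after cyclic loess, each sharing 45 with the set, and 55 with no filter and 41 with the filter at the 60th percentile. Centring each array on its median gave 96, including all 54, and set the median over all tested genes at -0.09. By construction, a 2-fold limit gave 6 genes and the looser limit tried 315, and leaving out 1 array, which leaves fewer differences to pass, gave 136 to 295: 295 without clone 9, 268 without clone 20, 136 without un-transfected and 142 without mock cells. The median log2 difference of the members stayed between -1.07 and -0.87 over the scalings and left-out arrays, and the median sizes of the within-group differences between 0.19 and 0.22 over the scalings. Of 210 recomputed differences of genes 1 to 30, 0 changed sign and 12 moved by more than the spread between lines. With an array left out, the rule fixes the sign and the shift cannot exceed that spread, so those values could not fail. All 12 moves came from the scalings, in genes 21, 23, 26, 27, 28 and 29, whose lines lay close together within each group. Over all tested genes, 2 passed limma's adjusted threshold under each scaling, filter and prior tried, neither of them a member, and 0 passed with any 1 array left out, where a group's single remaining array borrows the spread of the other group (at an unadjusted p under 0.05, 784 to 2743 genes did, against 2048 with all arrays). Mock was the lower control in 34 or 35 members under each scaling. No paired analysis was possible because the labels number no replicates across groups. Without a measure of background, differences of dim genes are uncertain. The promoter window was not varied, since promoters could not be matched.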
